A study of Mus musculus with 8 samples.

Results

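The genes described here encode proteins that activate transforming growth factor beta (TGF-beta) or carry its signal: Lrrc32, Itgb8, Tgfb1, Tgfb3, Tgfbr1, Tgfbr2, Smad3, Smad7, Ski and Skil. These 10 genes were chosen by name, out of 29924 gene names on the array, and among several probes of a gene the one with the highest mean level gave the main value. Their mRNA was followed in 4 types of CD4 T cell sorted from peripheral lymph nodes (pLN) of mice at day 12 (d12) and day 25 (d25) after immunization. Of the 10 genes, 9 could be tested, and Itgb8 was too low.

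TGF-beta is made as a latent complex, in which its own propeptide encloses the ligand. On Foxp3+ regulatory T cells the complex is held at the surface by GARP, the product of Lrrc32, and integrins that contain the beta 8 chain can free the ligand from it. Free ligand joins the receptors TGFBR2 and TGFBR1, which phosphorylate SMAD2 and SMAD3, and SMAD7, SKI and SKIL (SnoN) act as brakes at the receptor or at the Smad complex. In T cells the pathway is known for restraint of activation and effector fates and for its part in the formation of regulatory cells.

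The animals were B6.Cg-Foxp3<tm1Mal> mice, whose Foxp3 expressing cells carry EGFP, of both sexes and 8 to 14 weeks old by the labels. All had received keyhole limpet hemocyanin (KLH) with alum subcutaneously, so the naive cells came from immunized mice too. Each array held the RNA (25 ng) of cells pooled from 8 to 15 mice, and there was 1 array per cell type and day, 8 in all. All cells were sorted as B220- and CD4+. Naive cells were GFP-PD1-GL7-, follicular helper T (TFH) cells GFP-PD1hiGL7+, regulatory T (Treg) cells GFP+PD1-GL7- and follicular regulatory T (TFR) cells GFP+PD1hi with or without GL7. The GL7 gates of the 2 follicular types thus differed.

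Levels are given in relative units (RU), the array signal after quantile normalization and scaling of each array's 75th percentile to 1500, with a floor of 20 RU. Different probes bind with different strength, so levels of different genes were not compared. Between 46.3% and 50.4% of the 39429 probes were well above background on each array. A difference was called at an adjusted p below 0.05 in limma, fitted to 15747 genes with cell type and day as terms, and errors of log2 differences are standard errors (SE). The arrays of d12 and d25 were the only replicates of a cell type, and pools of mice were not repeated within a day. All d12 arrays shared a slide. At d25, naive and TFH cells were on slide 2 and Treg and TFR cells on slide 3, so Foxp3+ and Foxp3- cells were compared within a slide at d12 only, and day cannot be told apart from slide.

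Foxp3, Cxcr5 and Ccr7 followed the labels of the sorted cells. Foxp3 lay between 37266 and 49260 RU on the Foxp3+ arrays and between 65.5 and 358 RU on the Foxp3- arrays. Of the other listed markers of Foxp3+ cells, Il2ra separated these arrays too (at least 14490 against at most 249 RU). Ikzf2 and Ctla4 did not separate TFH from Treg cells. Ikzf2 gave 10507 and 10816 RU in TFH and 9918 and 11104 RU in Treg cells, and Ctla4 7083 and 8995 RU against 8109 and 10128 RU. Cxcr5 reached 182422 and 237475 RU in TFH cells and 35332 and 35831 RU in TFR cells, against at most 4385 RU in the other cell types, whereas Ccr7 was at least 112906 RU in naive and Treg cells and at most 23517 RU in both follicular types. All 4 CD4 T cell markers on the array were well above background on all 8 arrays. None of 7 platelet and megakaryocyte genes was well above background on any array, and none exceeded 54.9 RU, so that their summed level was 142 to 175 RU. Of 7 B cell genes, Pax5 was at or near the floor on all arrays, and the summed level was 5460 and 7310 RU in naive, 7619 (d12) and 15981 RU (d25) in TFH, 9658 and 10046 RU in Treg and 7702 and 8665 RU in TFR cells. The 5 stromal and endothelial genes summed to at most 435 RU. Of 7 genes of myeloid and dendritic cells, all 8 arrays showed 4 well above background, and the list summed to 71847 to 84339 RU in naive, 59986 to 66637 RU in TFH, 63808 to 66407 RU in Treg and 50948 to 55953 RU in TFR cells. Most of this was Siglech, at 47248 to 82571 RU, whereas Adgre1 and Clec9a were not well above background on any array. Cd68 of this list gave 5098 and 3767 RU in TFH and 2867 and 2334 RU in TFR cells against 368 to 564 RU in naive and Treg cells. The CD8 T cell genes summed to 2110 to 5117 RU, lower in both follicular types (at most 3173 RU) than in naive and Treg cells (at least 4208 RU), and Jchain of antibody-secreting cells reached 7465 RU on the naive array of d12. The part of RNA from such cells in the differences given here was not tested.

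Lrrc32, whose product GARP anchors latent TGF-beta, was abundant in the Foxp3+ cells. Its probe (chr7:105650282-105650341, build NCBI37, the positions of the array design) gave 33673 RU (d12) and 31116 RU (d25) for Treg, and 24759 and 26137 RU for TFR cells. In naive cells it gave 128 and 95.6 RU, and in TFH cells 62.1 and 85.2 RU. The Foxp3+ and Foxp3- arrays therefore did not overlap, and the probe was well above background on all 8 arrays. The log2 difference was -0.35 ± 0.22 between TFR and Treg cells (adjusted p = 0.256, limma) and -0.60 ± 0.22 between TFH and naive cells (adjusted p = 0.075), and neither was called. The second was -1.04 at d12 and -0.17 at d25, and it was called with all spots kept (adjusted p = 0.0481), with a trend and robust prior (0.0476) and without the TFH array of d25 (-0.91, adjusted p = 0.0313). The interval of the TFR and Treg difference, from -0.91 to 0.21, does not show that the 2 Foxp3+ types had equal levels. TFR exceeded TFH cells by 8.45 ± 0.22 on the log2 scale (adjusted p = 0.000428) and Treg exceeded naive cells by 8.19 ± 0.22 (adjusted p = 0.000654). These 2 differences were 8.64 and 8.04 at d12, where all cells shared a slide.

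Itgb8, which encodes the beta 8 chain of the integrin that frees TGF-beta, was near the limit of the array. Its probe (chr12:120401278-120401337) stood at the floor of 20 RU on both naive and both Treg arrays and on the TFH array of d12. It gave 34.2 RU in TFH cells at d25, and 40.4 RU at d12 and 67.6 RU at d25 in TFR cells. Only the TFR array of d25 was well above background. The gene was for that reason not tested, and the weakest probe signals called well above background on the 8 arrays were themselves 30.3 to 68.3 RU. The values thus give no order beyond the TFR array of d25.

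Of the ligands, Tgfb1, the form that T cells chiefly make, varied little. Its levels (chr7:26489877-26489936) were 3887 and 3737 RU in naive, 3415 and 2760 RU in TFH, 4609 and 4568 RU in Treg and 4975 and 4973 RU in TFR cells. The lowest TFR array was thus above the highest array of each other cell type, and the 2 TFH arrays were the lowest. TFR cells exceeded TFH cells by 0.70 ± 0.11 on the log2 scale, or 1.62-fold (adjusted p = 0.0152), with 0.54 at d12 and 0.85 at d25. With slide as a block this difference was 0.61 and no longer called (adjusted p = 0.079), nor was it called without the TFR array of d12 or of d25 (adjusted p = 0.0876 and 0.108). No other Tgfb1 difference was called, the adjusted p values being 0.0733 for TFH against naive, 0.443 for TFR against Treg and 0.206 for Treg against naive cells.

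Tgfb3 encodes another of the TGF-beta ligands and behaved otherwise. It reached 2432 RU at d12 and 1774 RU at d25 in TFH cells (chr12:87397804-87397863). Naive cells had 254 and 180 RU, TFR cells 175 and 75.3 RU and Treg cells 91.6 and 54.3 RU. The TFH arrays stood far above all others, and the Treg array of d25 was the only one not well above background. TFH exceeded naive cells 9.69-fold (log2 difference 3.28 ± 0.21, adjusted p = 0.000517), by 3.26 at d12 and 3.30 at d25. TFR cells were 18.1-fold below TFH cells (log2 difference -4.18 ± 0.21, adjusted p = 0.00084). Treg cells were 3.04-fold below naive cells (log2 difference -1.60 ± 0.21, adjusted p = 0.0147), a difference of -1.35 that was not called with slide as a block (adjusted p = 0.0533) or without any 1 of the 4 naive and Treg arrays (adjusted p = 0.068 to 0.114). Between TFR and Treg cells the difference of 0.70 ± 0.21 was not called (adjusted p = 0.0512), but it was with slide as a block (0.70, adjusted p = 0.0359), without quantile normalization (0.78, adjusted p = 0.0279) and without the TFR array of d25 (1.03, adjusted p = 0.0346). In TFH cells the summed B cell markers were 7619 RU at d12 and 15981 RU at d25, but the single markers did not move together. Ms4a1 gave 246 and 2737 RU, and Cd22, the only marker of the list that was lower at d25, 6016 and 3954 RU. Whether RNA from B cells adds to the Tgfb3 level was not tested.

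**Figure D1:**
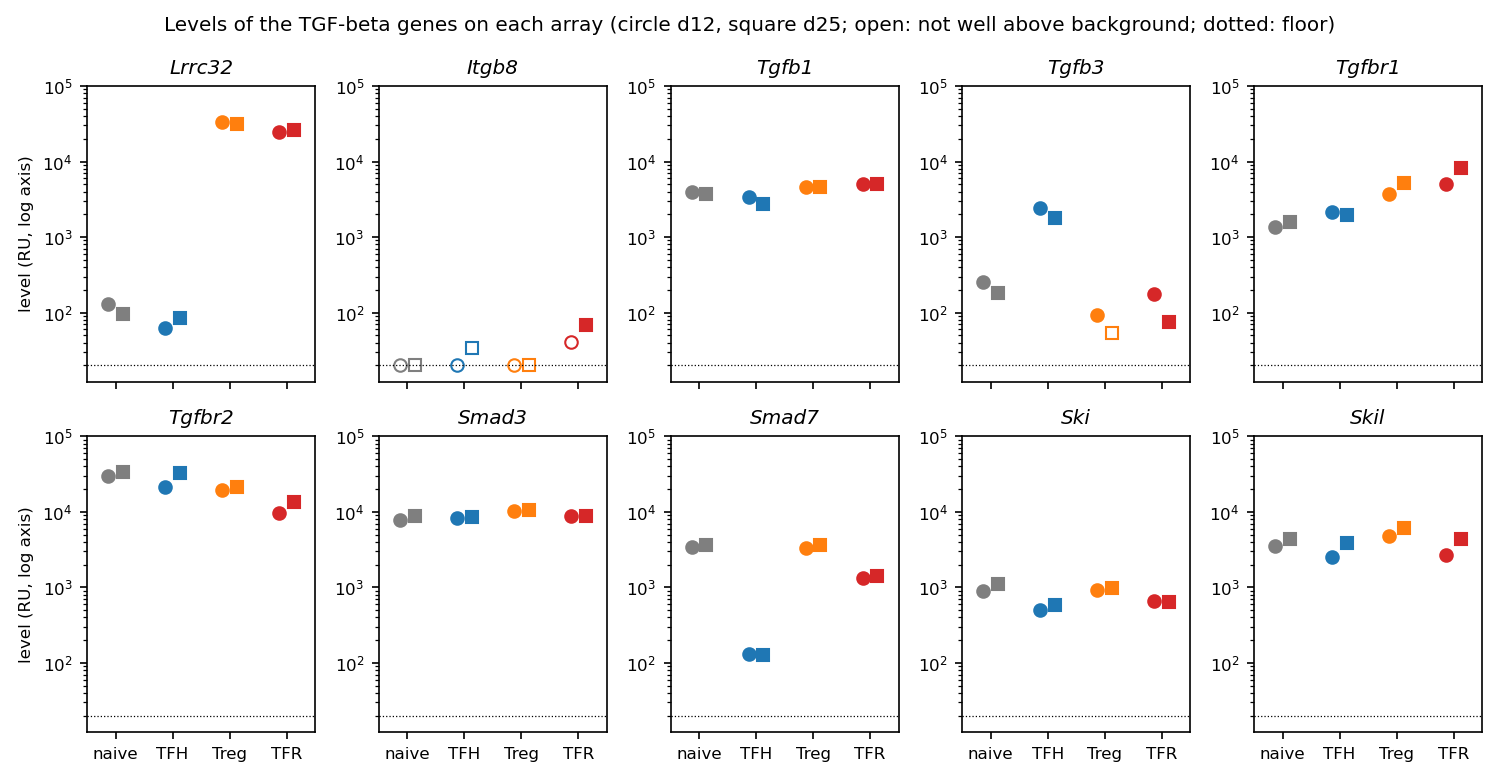
Levels of the 10 genes on each array in RU (log axis), with circles for d12, squares for d25 and open symbols for arrays on which the probe was not well above background. Lrrc32 separates the Foxp3+ arrays (24759 to 33673 RU) from the Foxp3- arrays (62.1 to 128 RU), Tgfb3 the TFH arrays (1774 and 2432 RU) and Smad7 the TFH arrays (125 and 132 RU) from the others.

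Between TFR and TFH cells the receptor chains changed in opposite directions, Tgfbr1 being higher and Tgfbr2 lower in TFR cells. Tgfbr1, the signal-transmitting type I receptor, measured 1355 and 1594 RU in naive, 2120 and 1938 RU in TFH, 3663 and 5250 RU in Treg and 4995 and 8283 RU in TFR cells (chr4:47427736-47427795). All Foxp3+ arrays were above all Foxp3- arrays. TFR cells exceeded TFH cells 3.17-fold (log2 difference 1.67 ± 0.22, adjusted p = 0.00911), by 1.24 at d12 and 2.10 at d25. Without the TFR array of d25 this was not called (adjusted p = 0.0625). Treg cells exceeded naive cells 2.98-fold (1.58 ± 0.22, adjusted p = 0.0176), and with slide as a block the difference was 1.29 and not called (adjusted p = 0.0514), as also without any 1 of the 4 arrays of these cells (adjusted p = 0.0977 to 0.131). Of the 3 other Tgfbr1 probes, 2 were at the floor on all arrays. The remaining one, at 26.6 to 174 RU and well above background on 5 arrays, had the same sign in both of these comparisons (0.96 and 1.91), and the opposite sign between TFR and Treg cells (-0.67, against 0.55 ± 0.22 for the main probe, which was not called).

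Tgfbr2, the ligand-binding type II receptor, had its highest mean level in naive and its lowest in TFR cells, but naive and TFH arrays overlapped. It gave 29514 and 33583 RU in naive, 21592 and 33062 RU in TFH, 19707 and 21593 RU in Treg and 9700 and 13701 RU in TFR cells (chr9:115997155-115997214). Both TFR arrays lay below every other array. TFR cells were 1.79-fold below Treg cells (log2 difference -0.84 ± 0.15, adjusted p = 0.0132), a comparison within slides, and 2.32-fold below TFH cells (-1.21 ± 0.15, adjusted p = 0.00785), which was not called with slide as a block (-1.17, adjusted p = 0.0542). The first was not called without the TFR array of d12 or d25 or the Treg array of d12 (adjusted p = 0.0938, 0.0635 and 0.0828), and the second not without either TFR array (adjusted p = 0.0765 and 0.0545). The differences of -0.61 ± 0.15 between Treg and naive cells and of -0.24 ± 0.15 between TFH and naive cells were not called (adjusted p = 0.0756 and 0.253). A second probe, at 270 to 905 RU and well above background on all arrays, gave -0.70 between TFR and Treg cells and -1.37 between TFR and TFH cells.

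Because the receptor chains moved apart between TFR and TFH cells, the 250 bases before their annotated starts are shown here, from RefSeq (build GRCm38.p6, not the build of the probe positions). Capitals mark the core of the Smad binding element, CAGAC or its reverse complement GTCTG. RefSeq's table held 7 starts for 6 of the 10 genes, 2 of them for Tgfbr1. The windows are chr4:47352972-47353221 and chr4:47385966-47386215 for Tgfbr1 (both on the plus strand) and chr9:116175364-116175613 for Tgfbr2 (minus strand).
Tgfbr1 start 1: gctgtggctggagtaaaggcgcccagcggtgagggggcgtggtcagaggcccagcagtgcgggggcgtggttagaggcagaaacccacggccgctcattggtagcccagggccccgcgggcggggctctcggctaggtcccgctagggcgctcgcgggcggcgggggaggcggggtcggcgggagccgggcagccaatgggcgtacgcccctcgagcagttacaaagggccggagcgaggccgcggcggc
Tgfbr1 start 2: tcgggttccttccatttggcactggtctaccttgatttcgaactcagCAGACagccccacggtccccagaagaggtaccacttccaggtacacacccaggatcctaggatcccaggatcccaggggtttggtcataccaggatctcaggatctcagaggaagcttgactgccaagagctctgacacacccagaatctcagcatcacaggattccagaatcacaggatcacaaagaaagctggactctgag
Tgfbr2: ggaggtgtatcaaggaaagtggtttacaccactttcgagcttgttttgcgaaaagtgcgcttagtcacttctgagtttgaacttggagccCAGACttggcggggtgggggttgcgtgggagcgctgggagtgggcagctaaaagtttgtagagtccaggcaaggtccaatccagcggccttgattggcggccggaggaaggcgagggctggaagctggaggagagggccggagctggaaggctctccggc
The core was present in 3 of the 7 windows, those of the second Tgfbr1 start, Tgfbr2 and Itgb8, and in 42.2% of the 32851 such windows of all genes. A forkhead motif (TGTTTAC or GTAAACA, in 3.17% of all windows) and an AP-1 motif (TGANTCA on either strand, in 6.75%) were in none of the 7. A match of these letters is a description of the window and not of binding.

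Smad3, which carries the receptor signal to the nucleus, was measured at 7851 and 8682 RU in naive, 8316 and 8506 RU in TFH, 10180 and 10631 RU in Treg and 8938 and 8716 RU in TFR cells (chr9:63494574-63494633). The Treg arrays were highest, the TFR arrays lay just above the rest, and naive and TFH arrays overlapped. None of its differences was called, with log2 differences from -0.24 to 0.33. With the mean of both Smad3 probes, TFR cells were below Treg cells (-0.76, adjusted p = 0.0184) and Treg cells above naive cells (0.91, adjusted p = 0.0306). For TFH against naive cells the 95% interval was -0.20 to 0.25. The second Smad3 probe was well above background on 1 array.

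Smad7, the inhibitory Smad that blocks the receptor and directs it to degradation, showed the largest decrease of the 9 tested genes in TFH against naive cells. It gave 3420 and 3673 RU in naive cells and 3346 and 3663 RU in Treg cells. TFR cells had 1332 and 1436 RU and TFH cells 132 and 125 RU. The levels thus formed 3 separate steps, with naive and Treg arrays interleaved at the top. TFH cells were 27.6-fold below naive cells (log2 difference -4.79 ± 0.09, adjusted p = 7.91e-05), and TFR cells were 2.53-fold below Treg cells (-1.34 ± 0.09, adjusted p = 0.00126). Both comparisons lie within slides and hardly varied with the day, with -4.70 and -4.87 for the first and -1.33 and -1.35 for the second. TFR exceeded TFH cells 10.8-fold (3.43 ± 0.09, adjusted p = 0.000428). Between Treg and naive cells the difference was -0.02 ± 0.09 (95% interval -0.26 to 0.22, adjusted p = 0.934). In bulk RNA of sorted cells, fewer cells with a transcript and less of it per cell cannot be told apart.

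Ski and Skil encode the related corepressors SKI and SnoN, which bind Smad complexes on DNA. Ski measured 901 and 1116 RU in naive, 934 and 974 RU in Treg, 664 and 632 RU in TFR and 499 and 577 RU in TFH cells (chr4:154528238-154528297). All follicular arrays were below all non-follicular arrays. TFH cells were 1.87-fold below naive cells (log2 difference -0.90 ± 0.12, adjusted p = 0.00425) and TFR cells 1.47-fold below Treg cells (-0.56 ± 0.12, adjusted p = 0.022). The latter was not called without any 1 of its 4 arrays (adjusted p = 0.0533 to 0.124).

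Skil gave 3514 and 4367 RU in naive, 4755 and 6199 RU in Treg, 2679 and 4376 RU in TFR and 2553 and 3835 RU in TFH cells (chr3:31021203-31021262). The value was higher at d25 than at d12 in each of the 4 cell types. TFR cells were 1.59-fold below Treg cells (log2 difference -0.67 ± 0.13, adjusted p = 0.0154), which was not called without the TFR array of d12 or the Treg array of d12 or d25 (adjusted p = 0.0926, 0.0998 and 0.0641). The same comparison of TFH with naive cells gave -0.32 ± 0.13 and was not called (adjusted p = 0.0929). Its second probe was well above background on 2 arrays, and its sign was that of the main probe in these comparisons (-0.55 and -0.48).

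**Figure D2:**
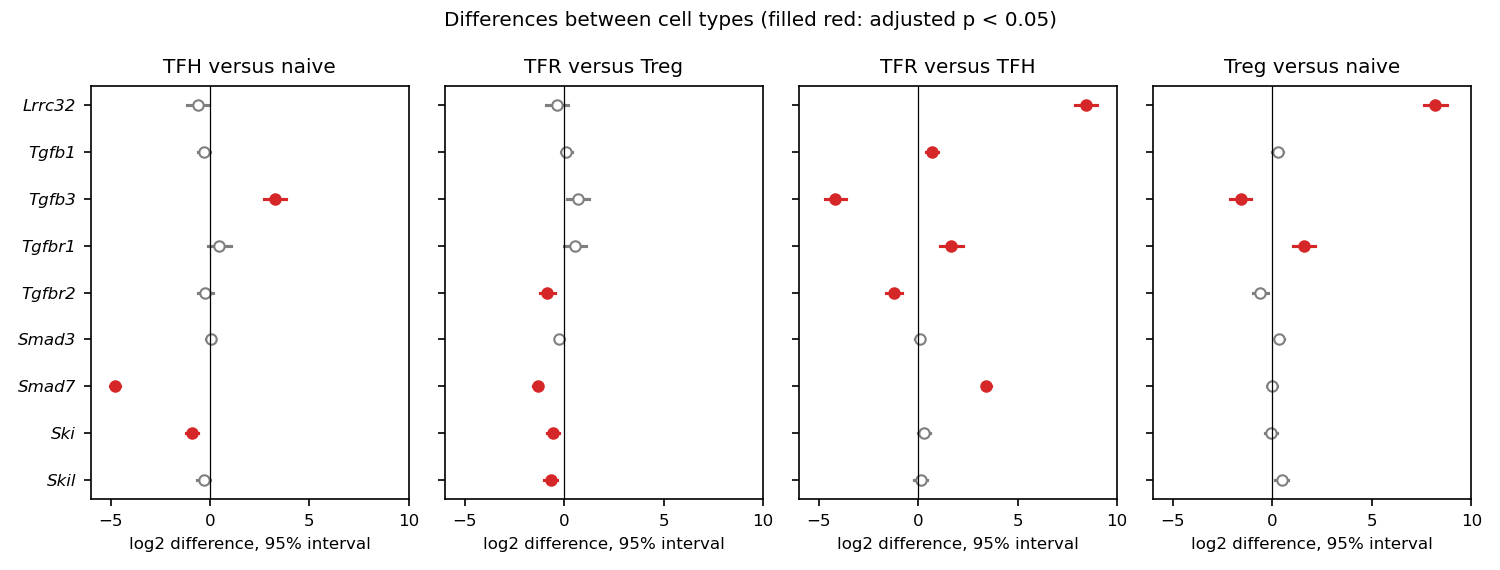
Log2 differences of the 9 tested genes in 4 comparisons, with 95% intervals and filled red points at an adjusted p below 0.05. Lrrc32 stands near 8 in both comparisons of Foxp3+ with Foxp3- cells, and Smad7 at -4.79 in TFH against naive cells.

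Counted over the 9 tested genes, TFH differed from naive cells in 3, with 1 higher (Tgfb3) and 2 lower (Smad7, Ski). Of all 15747 genes, 46.7% were called in this comparison, 21.0% higher and 25.7% lower, so the count is no larger than that background. TFR differed from Treg cells in 4 genes, all lower (Tgfbr2, Smad7, Ski and Skil), against a background of 39.8% called, 18.8% higher and 21.0% lower. TFR differed from TFH cells in 6 genes, with Lrrc32, Tgfb1, Tgfbr1 and Smad7 higher and Tgfb3 and Tgfbr2 lower, where 22.2% of all genes were called, 11.7% higher and 10.5% lower. Treg differed from naive cells in 3, with Lrrc32 and Tgfbr1 higher and Tgfb3 lower, where 9.89% were called, 5.91% higher and 3.99% lower. The median log2 difference of the 9 genes was -0.31, -0.35, 0.27 and 0.27 in these 4 comparisons, and that of all genes -0.07, -0.08, -0.02 and -0.01.

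To ask whether Foxp3+ and Foxp3- cells differed in the step from the non-follicular to the follicular state, the change from Treg to TFR cells was set against that from naive to TFH cells. The difference of these changes was called for 2 of the 9 genes, and for 8.52% of all genes. For Smad7 the decrease was smaller in Foxp3+ cells by 3.44 ± 0.13 on the log2 scale (adjusted p = 0.00269), with 3.37 at d12 and 3.52 at d25. For Tgfb3 the increase was larger in Foxp3- cells, and the difference of -2.58 ± 0.29 (adjusted p = 0.0135) was -2.32 at d12 and -2.83 at d25, but was not called without any 1 of the naive and Treg arrays (adjusted p = 0.05 to 0.0768). For Ski, which fell in both lineages, the difference of 0.34 ± 0.17 was not called (adjusted p = 0.290). Tgfbr2 fell between Treg and TFR cells and was not called between naive and TFH cells, but the difference between both changes was not called either (-0.60 ± 0.21, adjusted p = 0.169).

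**Figure D3:**
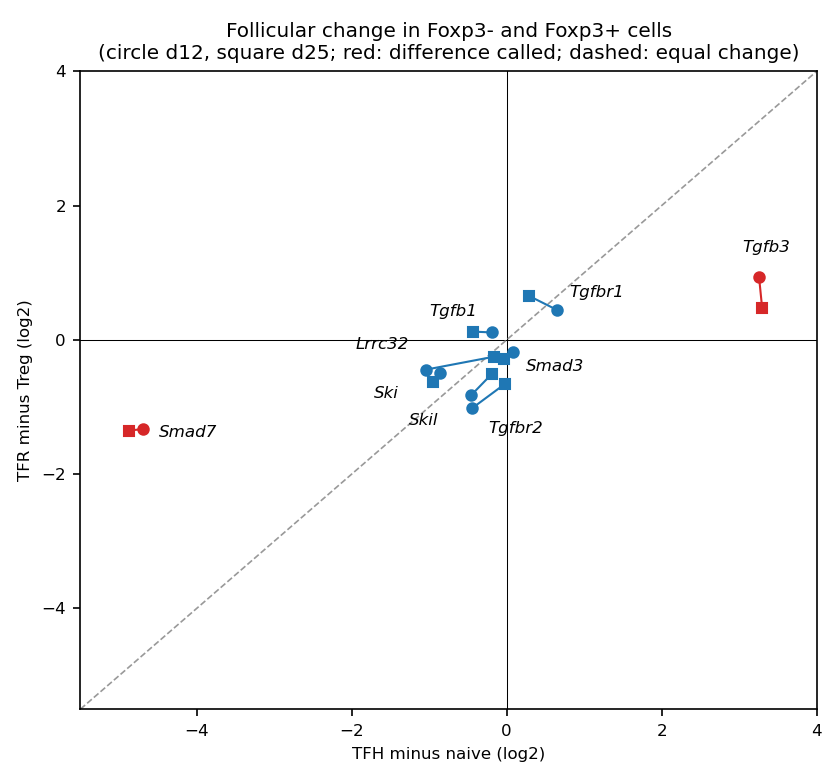
Change from naive to TFH cells (horizontal axis, log2) and from Treg to TFR cells (vertical axis, log2) for the 9 tested genes, with a circle for d12 and a square for d25 joined by a line. Smad7 and Tgfb3, in red, lie away from the dashed line of equal change at both days, with differences of the 2 changes of 3.44 and -2.58.

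Between d25 and d12 none of the 9 genes was called in limma, where 0.0699% of all genes were called. An unadjusted p below 0.05 was given to 3 genes, Tgfb3 with a log2 difference of -0.73 ± 0.15 (adjusted p = 0.0804), Skil with 0.50 ± 0.09 (adjusted p = 0.073) and Tgfbr2 with 0.36 ± 0.11 (adjusted p = 0.122). The share of all genes below that unadjusted threshold is not given here, and the 0.0699% refers to adjusted p. The 3 genes are thus described without being set apart from other genes. Each of the 3 had the same sign in all 4 cell types. Tgfb3 was lower at d25 by 0.46 to 1.22, Skil higher by 0.31 to 0.71 and Tgfbr2 higher by 0.13 to 0.61. The 4 arrays of a day do not separate the day from the slides.

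Ranked by mean level, Smad7 ran from naive over Treg and TFR to TFH cells, and the steps from Treg to TFR and from TFR to TFH cells were called while that from naive to Treg cells was not. Ski had the same order, of which the step from Treg to TFR cells alone was called. Tgfb3 ran from TFH over naive and TFR to Treg cells, with the first step called, the second not tested and the third not called. Tgfbr1 and Tgfbr2 had inverse orders, with TFR cells first for Tgfbr1 and last for Tgfbr2. For Tgfbr1 and for Tgfb1 no step between tested neighbors was called.

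Among the 15746 other tested genes, those whose log2 levels followed a gene most closely over the 8 arrays were named by Pearson correlation, as a description over arrays that share cell type and slide. Lrrc32 was followed most closely by Il2ra (r = 0.996), the high-affinity chain of the IL2 receptor, Entpd1 (0.995), the ectoenzyme CD39, and Fam89a (0.991). Il2ra lay at 14490 to 28684 RU on the Foxp3+ arrays and at 207 to 249 RU on the others. Nearest to Tgfb3 were Sytl3 (0.991), Fam222a (0.985) and Rab4b (0.982), with Sytl3 at 6303 and 8763 RU in TFH cells and at most 664 RU elsewhere. Nearest to Smad7 were Dyx1c1 (0.995), Rras2 (0.995) and F2rl3 (0.994), and those close to Ski included Eno1 (0.988) and Armc10 (0.986). Tgfbr1 was closest to Slc25a24 (0.987), Gphn (0.985) and Cyth4 (0.979), and Tgfbr2 to Dcaf8 (0.991), Zxdc (0.991) and Bcdin3d (0.988). Tgfb1 was closest to Gm5296 (0.997), Grb7 (0.994) and 2010111I01Rik (0.986), and Skil to Hnrnpk (0.991), Herc4 (0.980) and Heca (0.976). The number of genes above an r of 0.95 was 199 for Ski, 173 for Smad7, 64 for Tgfb3 and 43 for Lrrc32, but 3 for Smad3, whose range was narrow and whose closest named genes were Shisa7 (0.952) and Tmem40 (0.951).

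Around these genes, 75 others of the pathway were collected in 6 lists, and 59 of them could be tested. In TFH against naive cells 34 were called (57.6%), 16 higher and 18 lower, and in TFR against Treg cells 30 (50.8%), 11 higher and 19 lower. In TFR against TFH cells 23 were called (39.0%), 15 higher and 8 lower, and in Treg against naive cells 17 (28.8%), 12 higher and 5 lower. The corresponding shares of all genes are those given above. With slide as a block, 13 of the 23 calls in TFR against TFH cells and 8 of the 17 in Treg against naive cells were lost.

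The list of receptors and co-receptors also held associated genes that are not receptors, such as Fkbp1a. Of its 8 tested genes, 5 were lower in TFH than in naive cells, and 5 in TFR than in Treg cells. Fkbp1a was in both counts, at -0.51 and -0.35. Its second call was lost under 10 of 20 alternatives, slide as a block among them. None of the 8 was higher in either comparison, where 25.7% and 21.0% of all genes were lower. In TFR against TFH cells 1 was higher and 2 were lower (37.5% called, against 22.2% of all genes). These were Acvrl1 (1.06 ± 0.10, adjusted p = 0.00331), Tgfbr3 (-2.32 ± 0.12, adjusted p = 0.000936) and Acvr1b (-0.56 ± 0.10, adjusted p = 0.0179). Acvrl1, the type I receptor ALK1, was at 5826 and 6274 RU in naive and at only 117 and 149 RU in TFH cells (-5.52 ± 0.10 on the log2 scale, adjusted p = 7.91e-05). Treg cells had 1223 and 1384 RU of it and TFR cells 253 and 300 RU (-2.24 ± 0.10, adjusted p = 0.000486), so that naive, Treg, TFR and TFH arrays formed separate steps. Tgfbr3, the co-receptor betaglycan, was at 12179 and 14017 RU in naive cells and at 1195 and 1086 RU in TFR cells, with 5643 and 5745 RU in TFH and 2359 and 2795 RU in Treg cells. It was lower in TFH than in naive cells (-1.20 ± 0.12, adjusted p = 0.00195) and lower in Treg than in naive cells (-2.35 ± 0.12, adjusted p = 0.00154), where Acvrl1 (-2.22) and Eng (-0.67) were lower too, and it fell by 1.17 from Treg to TFR cells. Acvr1b, an activin type I receptor, fell by 1.09 in TFH against naive cells and by 1.23 in TFR against Treg cells, and Eng, the co-receptor endoglin, by 1.13 and 0.57.

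Genes of ligand storage and activation went both ways. Of 11 tested, 5 were higher and 3 lower in TFH than in naive cells (72.7% called, against 46.7% of all genes). TFR cells had 3 higher and 3 lower than Treg cells (54.5%, against 39.8%). Itgb3, the beta 3 integrin chain, gave 19934 and 19178 RU in naive and 405 and 422 RU in TFH cells (log2 difference -5.56 ± 0.21, adjusted p = 0.000179). Between Treg (10875 and 9812 RU) and TFR cells (2090 and 1241 RU) it fell by 2.68 (adjusted p = 0.00174). Itgb1, the beta 1 chain, rose in both (1.62 ± 0.13 and 1.17 ± 0.13, adjusted p = 0.00104 and 0.00407) and was higher in Treg than in naive cells (1.21 ± 0.13, adjusted p = 0.00963). Itgb5, the beta 5 chain, was called higher in both follicular types. It gave 752 and 586 RU in TFH against 43.0 and 20 RU in naive cells. TFR cells had 1374 and 1820 RU of it against 42.2 and 69.8 RU in Treg cells, so the lower side was near background each time. Nrros, which like GARP holds latent TGF-beta, was lower in TFH than in naive cells (-1.56 ± 0.08) and in TFR than in Treg cells (-0.84 ± 0.08). Nrp1, a receptor also known to bind latent TGF-beta, gave 1263 and 1133 RU in TFH, 1357 and 1253 RU in Treg and 2862 and 2880 RU in TFR cells, and was not well above background in naive cells. Its log2 difference between TFR and Treg cells was 1.14 ± 0.23 (adjusted p = 0.0179). TFH cells exceeded naive cells at least 16.5-fold, taking the weakest detectable signal for the naive arrays. In TFR against TFH cells all 5 called genes of the list were higher (45.5% of those tested, where 11.7% of all genes were called higher). They included Itgb3 (1.96 ± 0.21), Nrp1 (1.26 ± 0.23) and Itgb1 (0.76 ± 0.13). With slide as a block, Itgb3 stayed called in this comparison, and Nrp1, Itgb1 and the other called genes, Nrros and Hsp90b1, did not.

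Of the 10 tested Smads and Smad cofactors, 2 were higher and 3 lower in TFH than in naive cells. These 50% called are close to the 46.7% of all genes. TFR cells had 1 higher and 5 lower than Treg cells (60%, against 39.8%). Lower in both were Smad4, the shared partner of the receptor-activated Smads (-0.74 ± 0.08 and -0.65 ± 0.08), Trim33 (-0.82 and -0.73) and the corepressor Tgif2 (-0.97 and -0.81). Tgif1, its relative, was higher in TFH (0.81 ± 0.19) and in Treg cells (1.17 ± 0.19) than in naive cells. Zeb2, a Smad-binding repressor, was at the floor on all naive and Treg arrays, at 461 and 877 RU in TFH and at 87.3 and 221 RU in TFR cells (-2.19 ± 0.38 against TFH cells, adjusted p = 0.0191). Zeb1, a related repressor, was lower in TFR than in Treg (-0.88 ± 0.12, adjusted p = 0.00657) and than in TFH cells (-0.58 ± 0.12, adjusted p = 0.0323).

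Of 13 tested regulators of receptor and Smad turnover, 1 was higher and 4 lower in TFH than in naive cells (38.5% called, against 46.7% of all genes), and 4 were lower in TFR than in Treg cells (30.8%, against 39.8%). Nedd4l, a ubiquitin ligase that acts on Smads, was at 1263 and 1448 RU in naive cells, compared with 148 and 114 RU for TFH (-3.38 ± 0.18, adjusted p = 0.000336). Its decrease from Treg (1000 and 1155 RU) to TFR cells (276 and 233 RU) gave -2.08 ± 0.18 (adjusted p = 0.00218). Smurf2, a ligase that SMAD7 brings to the receptor, fell by 0.93 and 1.37, and its relative Smurf1 by 0.86 and 1.09. Nedd4l was higher in TFR than in TFH cells (0.96 ± 0.18, adjusted p = 0.0246), and Smurf2 was lower (-0.54 ± 0.12, adjusted p = 0.0357). Ldlrad4, an inhibitor of Smad activation, rose in TFH cells (1.86 ± 0.29, adjusted p = 0.00668), and Pmepa1, its relative, was higher in Treg than in naive (0.92 ± 0.12) and in TFR than in TFH cells (0.97 ± 0.12).

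Smad7, Skil and Pmepa1 were not put in the list of genes known to rise with TGF-beta. In TFH against naive cells they gave -4.79, -0.32 and -0.16 on the log2 scale, and only Smad7 was called. Of the 8 tested genes of that list, 5 were higher and 1 lower in TFH than in naive cells (75% called, against 46.7% of all genes). TFR cells had 4 higher than Treg cells (50%, against 39.8%), and Treg cells had 5 higher than naive cells (62.5%, against 9.89%). Bhlhe40, a transcription factor also induced by T cell activation, rose from at most 146 RU in naive cells to 1503 and 2655 RU in the follicular Foxp3- cells, at an adjusted p of 0.00111, and by 3.11 ± 0.34 in TFR against Treg cells. It was also higher in Treg than in naive (2.43 ± 0.34) and in TFR than in TFH cells (1.54 ± 0.34). Klf10 rose by 1.54 ± 0.10 and 0.87 ± 0.10 in the follicular types and by 0.72 ± 0.10 in Treg against naive cells. Cdkn1a, the cell cycle inhibitor p21, gave 1082 and 1003 RU in TFH and 384 and 289 RU in TFR cells (-1.64 ± 0.16, adjusted p = 0.00438), but with the mean of all its probes that difference was -0.17 and not called (adjusted p = 0.612). Tgm2, a transglutaminase, gave 161 and 98.7 RU in naive, 1540 and 1200 RU in TFH, 687 and 477 RU in Treg and 570 and 344 RU in TFR cells, and was higher in TFH than in naive (3.43 ± 0.12, adjusted p = 0.00017), higher in Treg than in naive (2.18 ± 0.12, adjusted p = 0.00166) and lower in TFR than in TFH cells (-1.62 ± 0.12, adjusted p = 0.00211). Itgae, the CD103 chain, was at least 41.9-fold higher in TFR (1227 and 2515 RU) than in TFH cells (20 and 45 RU, not well above background).

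Of the 9 genes known to fall with TGF-beta in T cells, 3 were higher and 2 lower in both TFH against naive and TFR against Treg cells. That is 55.6% called in each, against 46.7% and 39.8% of all genes. Ifng rose by 3.47 ± 0.43 and 4.05 ± 0.43 and Gata3, a factor of the TH2 fate, by 0.90 ± 0.17 and 0.92 ± 0.17, whereas Prf1, the pore-forming perforin, fell by 2.74 and 1.69 and Myc by 2.69 and 1.29. The third to rise was Il2 in TFH against naive cells (0.71 ± 0.20, adjusted p = 0.0374) and Tbx21, which encodes T-bet, in TFR against Treg cells (1.84 ± 0.21, adjusted p = 0.00412). Tbx21 (1.54 ± 0.21), Gata3 (0.92 ± 0.17) and Myc (2.02 ± 0.20) were also higher in TFR than in TFH cells. So was Gzmb, with 5557 and 1726 RU in TFR against 197 and 20 RU in TFH cells. In Treg against naive cells 2 were higher and 2 lower (44.4% called, against 9.89% of all genes). Gata3 was higher (0.90 ± 0.17, adjusted p = 0.0419) and Il2 (-3.24 ± 0.20) and Prf1 (adjusted p = 0.00632) lower. Gzmb was the other higher gene, with 4662 and 1685 RU in Treg against 240 and 72.0 RU in naive cells. Il2 was low in Foxp3+ cells, with 68.8 and 82.9 RU in Treg and 63.5 and 54.1 RU in TFR cells against 632 to 1375 RU on the Foxp3- arrays. Between TFR and TFH cells its log2 difference was -4.31 ± 0.20 (adjusted p = 0.000701). Neither this list nor that of rising genes thus moved in 1 direction only in TFH against naive cells, and several of their members are also known targets of other signals. The 1 lower rising gene was Itgae, near the floor at 52.8 and 117 RU in naive and 20 and 45 RU in TFH cells. Its call was lost under 5 of 19 alternatives. In TFR against Treg and in Treg against naive cells all called rising genes were higher, although Cdkn1a was near background in the second comparison.

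**Figure D4:**
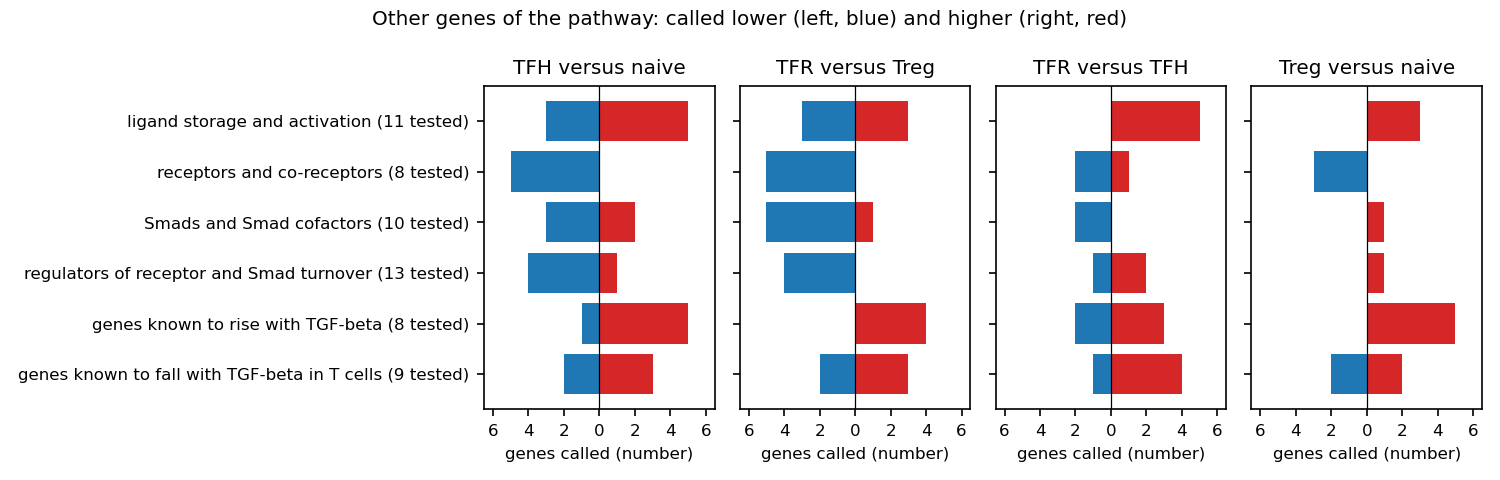
Number of genes called lower (blue, to the left) and higher (red, to the right) in 6 lists of other genes of the pathway, in 4 comparisons. Of the 8 tested genes in the list of receptors and co-receptors, Fkbp1a included, 5 were lower and none higher in both TFH against naive and TFR against Treg cells. Of all genes, 25.7% and 21.0% were called lower in these comparisons.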

How the data were processed

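RNA of 4 sorted CD4 T cell types at 2 days was hybridized to 8 one-color Agilent arrays, each probe printed 4 times. The deposited scanner files hold spot intensity values (gProcessedSignal, background-subtracted by Agilent Feature Extraction 10.7.3.1 per the labels), and a deposited table holds the authors' normalized intensity values. The main values were rebuilt from the scanner files by the steps of the authors' methods: spots flagged as outliers, outlying among their replicates or with a pixel coefficient of variation over 0.5 were left out, which kept 86.4% to 89.2% of spots, the rest were averaged geometrically, quantile normalized, scaled to a 75th percentile of 1500, set to at least 20 and taken to log2. They correlated with the authors' table at r of at least 0.999. The probe with the highest mean stood for its gene.

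Tested were the 15747 of 29924 gene names that had values on all 8 arrays and, in 1 cell type or more, signals well above background (in over 50% of the spots) at both days. limma 3.58.1 in R 4.3.3 fitted cell type and day (3 residual and 1.91 prior degrees of freedom), and the Benjamini-Hochberg adjustment ran over all of these genes. The script was tested on simulated data. The number of arrays limits the precision. No saturated probe was seen.

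The genes, the 6 pathway lists and the marker lists were chosen with earlier results of these data known. From each list the text names up to 3 called genes per comparison, those with the largest log2 difference among genes well above background in both groups. Further values of these genes, and Smad4, Itgae, Itgb5, Hsp90b1, Fkbp1a and Gzmb, were given outside this rule, after their values were seen. For a gene below background in the lower group, "at least" folds were taken against each array's weakest signal well above background. There were 21 alternatives, 8 of which left out an array each. Cells from Peyer's patches were not analysed here. Among the closely correlated genes, 1 is not reported here. Genome annotation of build NCBI37 was not used here, so exon or UTR positions of probes are not given.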

Additional observations from a re-analysis of the deposited data

Results flagged for a closer look

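The change from the non-follicular to the follicular state differed between Foxp3+ and Foxp3- cells for 2 of the genes. For Smad7 the change in Foxp3+ cells minus that in Foxp3- cells was 3.44 ± 0.13 on the log2 scale (adjusted p = 0.00269, limma), where TFH cells stood at 132 and 125 RU and TFR cells at 1332 and 1436 RU. For Tgfb3 it was -2.58 ± 0.29 (adjusted p = 0.0135), with 2432 and 1774 RU in TFH cells and 175 and 75.3 RU in TFR cells. Smad7 kept this call under all 19 alternatives and Tgfb3 under 12 of 18.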

How the results depend on the processing

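Of the called differences of the 9 tested genes, those of Smad7 (TFH against naive, TFR against Treg, TFR against TFH cells and the difference of changes), of Tgfb3 and Ski in TFH against naive cells, and of Lrrc32 and Tgfb3 in TFR against TFH cells stayed called under every alternative that tested them. None of these called differences reversed. The alternative that asks for a log2 difference of at least 1 entered only the counts given below. It was left aside for single genes here and in the pathway lists, and Ski, at -0.90 in TFH against naive cells, falls short of it. The others were lost under the following alternatives, and the cause was not tested. Lrrc32 in Treg against naive cells was lost in a fit of the 2 cell types alone (adjusted p = 0.0512). Tgfb1 in TFR against TFH cells was lost without either TFR array (0.0876 and 0.108), with slide as a block, with the 2 cell types alone and without a filter on dim genes. Tgfbr1 in TFR against TFH cells was lost without the TFR array of d25 (0.0625), with the 2 cell types alone and without the filter. Tgfbr1 in Treg against naive cells was lost without any 1 of the 4 arrays of these types (0.0977 to 0.131), and so was Tgfb3 (0.068 to 0.114), and both were lost with slide as a block, with the 2 cell types alone and without the filter, and Tgfb3 also without the day term. Tgfbr2 in TFR against Treg cells was lost without either TFR array (0.0938 and 0.0635), the Treg array of d12 (0.0828), the filter or the day term, and in TFR against TFH cells without either TFR array (0.0765 and 0.0545), with slide as a block and without the filter. Ski in TFR against Treg cells was lost without any 1 of the 4 arrays (0.0533 to 0.124) and without the filter. Skil there was lost without the TFR array of d12 (0.0926), either Treg array (0.0998 and 0.0641), the filter or the day term. The difference of changes for Tgfb3 was lost without any 1 of the naive and Treg arrays (0.05 to 0.0768), the filter or the day term.

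Differences that were not called in the report were called under some alternatives. These were Lrrc32 in TFH against naive cells with all spots (adjusted p = 0.0481), the trend (0.0476) and without the TFH array of d25 (0.0313), and in TFR against Treg cells with normexp (0.0468). Tgfb1 in TFH against naive cells was called with the trend (0.0465) and without the TFH array of d12 (0.0309), and Tgfbr1 there without the TFH array of d25 (0.0429). Tgfbr1 in TFR against Treg cells was called with the 2 cell types alone (0.0445), and Tgfb3 there as given in the report. Smad3 was called with the mean of all probes and the trend in TFR against Treg (0.0184 and 0.0456) and in Treg against naive cells (0.0306 and 0.0363). In Treg against naive cells Skil was called with normexp and the trend (0.0429 and 0.0483), and Tgfbr2 without quantiles (0.0371), with the mean of all probes (0.0283), normexp (0.046) and the trend (0.0297). Between the days Skil was called with normexp (0.038), the trend (0.0326) and genes well above background on all arrays (0.0428), and Tgfb3 with normexp (0.0473).

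Of the called genes of the pathway lists, 21 of 34 in TFH against naive, 16 of 30 in TFR against Treg, 7 of 23 in TFR against TFH and 0 of 17 in Treg against naive cells stayed called under every alternative that tested them. With an array left out, 11, 12, 16 and 11 of them were lost at least once, among those named Smurf1, Gata3, Il2 and Tgif1 in TFH against naive, Nrp1, Eng, Trim33, Zeb1, Smurf1, Gata3 and Myc in TFR against Treg, Itgb1, Nrp1, Acvr1b, Zeb1, Zeb2, Smurf2, Nedd4l, Pmepa1, Cdkn1a, Bhlhe40, Tbx21, Gata3 and Myc in TFR against TFH, and Itgb1, Eng, Tgif1, Pmepa1, Klf10, Bhlhe40, Prf1 and Gata3 in Treg against naive cells. Also lost with an array left out were Fkbp1a in TFH against naive and in TFR against Treg cells. The same held for Nrros and Hsp90b1 in TFR against TFH and for Cdkn1a and Gzmb in Treg against naive cells. Ltbp3 in TFH against naive cells reversed to 0.6904 with the mean of all probes.

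Counts of the genes described moved as follows. In TFH against naive cells 5 were called with a trend and robust prior, and 3 to 5 when each array was left out. In TFR against Treg cells 1 was called without the filter, 2 without the day term, 1 with a log2 difference of at least 1, and 1 to 4 with arrays left out. In TFR against TFH cells 3 were called without the filter and 3 to 6 with arrays left out. In Treg against naive cells 5 were called with the mean of all probes, 5 with normexp background, 6 with the trend, 1 with slide as a block, 1 without the filter, 0 with the 2 cell types alone and 1 to 3 with arrays left out. The difference of changes was called for 1 without the filter, 1 without the day term, 1 with genes well above background on all arrays (Tgfb3 was then not tested) and 1 to 2 with arrays left out. For d25 against d12 it was 2 with normexp, 1 with the trend and 1 with genes well above background on all arrays.

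Over all genes tested, calls in TFH against naive cells (7347) were 3273 with a log2 difference of at least 1, 3101 with the 2 cell types alone and 4323 to 6511 with arrays left out. In TFR against Treg cells (6261) they were 2530, 3865 without the filter and 2524 to 6758. In TFR against TFH cells (3493) they were 1695 at that difference, 2215 without the day term, 1645 without the filter, 1681 with the 2 cell types, 1368 with slide as a block and 947 to 2939. In Treg against naive cells (1558) they were 935, 1004, 687, 0 and 531 under these settings and 423 to 1885. For the difference of changes (1341) they were 820 without the day term, 421 without the filter, 703 with slide as a block and 303 to 1111. For d25 against d12 (11) they were 28 without quantiles, 7 at a difference of at least 1, 6 with all spots kept, 0 with the mean of all probes, 0 without the filter, 903 with normexp, 1270 with the trend, 856 with genes well above background on all arrays and 0 with arrays left out.

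Differences that were not called changed sign in these cases. Lrrc32 gave 0.0126 for d25 against d12 with all spots, 0.0006 in the authors' table and -0.152 to 0.14 with arrays left out, and its difference of changes -0.147 with normexp and -0.047 to 0.56 with arrays left out. Smad3 gave -0.0264 in TFH against naive cells without quantiles and -0.0361 to 0.0896 with arrays left out, and for the days -0.0088 without quantiles and -0.165 with the mean of all probes. In Treg against naive cells Smad7 gave 0.036 with normexp and -0.0597 to 0.0241 with arrays left out, and Ski 0.0612 with slide as a block and -0.192 to 0.0488 with arrays left out. Tgfbr1 gave -0.0285 in TFR against Treg cells with the mean of all probes, and its difference of changes -0.214 with that mean and -0.223 to 0.401 with arrays left out. Skil gave -0.01 to 0.27 in TFR against TFH cells with arrays left out. Scaling without quantiles moved the median of all genes in TFH against naive cells from -0.07 to -0.13.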
